A study of Homo sapiens with 6 samples.

Results

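The regions described here are the 100-kb tiles in the outermost 5 Mb of the autosome arms, the subtelomeric parts of the chromosomes. Both arms of chromosomes 1 to 22 were used except the short arms of chromosomes 13, 14, 15, 21 and 22, which gave 39 arm ends (17 short arms and 22 long arms) and 1950 tiles of the 28967 on the autosomes. The start of a short arm was base 1, and the end of a long arm was the highest position in any of the 6 peak lists. These tiles were chosen by their distance from the ends so defined, with no use of how much peak length they hold, and make up 7.0% of the autosome sequence outside the centromeres. Positions are on T2T-CHM13v2.0 and count from 1.

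The peaks are CUT&RUN calls, in which a nuclease tethered by an antibody releases the bound chromatin for sequencing. All libraries came from hTERT-RPE1-Tet-GFP-CENP-A, a telomerase-immortalized retinal pigment epithelial line that makes GFP-tagged CENP-A when DOX is given. Cells received either siNeg, the control siRNA, or siDNAJC9 for 96 h in all, and every culture had 1 µg/ml DOX over the last 48 h, so the controls also carried induced CENP-A. For either siRNA the lists hold replicates 1 and 3 with a CENP-A antibody and replicate 2 with IgG, and a further IgG library of that siRNA, not analysed here, was the control for peak calling in all 3. RPE1 cells are known to carry an additional segment of the long arm of chromosome 10 joined to the X chromosome, and copy number was not measured here.

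CENP-A is the histone H3 variant that marks centromeres, and when it is made in excess it can be placed along the arms. DNAJC9 is a chaperone that binds H3–H4 and recruits heat shock proteins to them. Subtelomeres lie between the telomere repeats and the unique sequence of an arm. Many of them are rich in genes and in duplicated segments shared between chromosome ends, from which short reads can align to more than one end. IgG binds no particular chromatin protein and gives the background of the method.

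The lists give only where a peak starts and ends, in whole kb and with no peak under 5 kb, so the measure was the length under peaks. Depth is unknown, and a region marked in few cells cannot be told apart from a region marked weakly in all of them. The tiles 5–10 Mb from the ends of the same 39 arms served as the comparison (also 1950 tiles). The long-arm end was set by a peak of the siDNAJC9 IgG list on 16 of 22 chromosomes, of the siNeg IgG list on 4, and of siDNAJC9 CENP-A replicates 1 and 3 on 1 each. How far these ends lie from the telomere repeats was not measured, and the outermost long-arm tile had to hold a peak of at least 1 list.

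The distal 5 Mb carried many more CENP-A peaks in DNAJC9-depleted cells than in control cells, and fewer than the sequence further in. In siNeg cells the CENP-A peaks covered 121 kb of the distal 195 Mb in replicate 1 and 25 kb in replicate 3. In siDNAJC9 cells they covered 2191 kb and 1600 kb. The groups did not overlap: the mean was 1895.5 ± 417.9 kb (SD, n = 2) with siDNAJC9 against 73.0 ± 67.9 kb (SD, n = 2) in control cells, which is 26.0-fold, or 4.70 on the log2 scale. The ratio of single libraries ran from 13.2 to 87.6, because the siNeg replicates differed from each other. With 2 libraries against 2 an exact two-sided permutation test gave p = 0.33, the smallest it allows. Without siNeg CENP-A replicate 1 the log2 ratio was 6.24, without siNeg CENP-A replicate 3 it was 3.97, and with peaks of at least 7 kb alone it was 8.05. The last value follows from the cut itself. Distal siNeg CENP-A peaks had a median width of 5 kb and were at most 8 and 5 kb wide in replicates 1 and 3.

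The rise was smaller than elsewhere on the arms. At 5–10 Mb from the end the same ratio of means was 32.4-fold (3210.5 ± 735 against 99.0 ± 70.7 kb, SD, n = 2 each), and beyond 10 Mb, outside the centromeric windows, it was 43.7-fold. The single-library ranges of the 3 zones overlapped (13.2 to 87.6, 18.1 to 76.1 and 24.9 to 98.1). The order of these ratios therefore lay within the spread between the control libraries.

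The length under IgG peaks at the arm ends differed between the siRNAs. The IgG list of siNeg cells covered 1374 kb of the distal regions, more than either siNeg CENP-A list. The IgG list of siDNAJC9 cells covered 7918 kb, 5.76 times as much, and 3.61 and 4.95 times the length under siDNAJC9 CENP-A peaks of replicates 1 and 3. The IgG lengths at 5–10 Mb were 1517 and 4227 kb (2.79-fold), and beyond 10 Mb they were 8.61 and 12.0 kb per Mb (1.39-fold). Each siRNA had 1 IgG library, so these differences between IgG libraries have no replicate check.

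Per Mb of sequence, siDNAJC9 CENP-A replicate 1 covered 11.2 kb in the distal 5 Mb, 19.1 kb at 5–10 Mb and 31.7 kb beyond 10 Mb. Replicate 3 covered 8.21, 13.8 and 23.4 kb per Mb. Both libraries thus climbed from the chromosome end inward. The siDNAJC9 IgG list fell in the same order, with 40.6, 21.7 and 12.0 kb per Mb. Beyond 10 Mb the CENP-A lists lay above it by 2.65 and 1.96 times. The siNeg IgG list was nearly level (7.05, 7.78 and 8.61 kb per Mb), and the siNeg CENP-A lists stayed under 1 kb per Mb in all 3 zones.

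The distal share of all autosomal peak length outside the centromeres puts this on 1 scale. For siNeg CENP-A it was 4.87% in replicate 1 and 2.97% in replicate 3. It was 2.73% and 2.70% in siDNAJC9 CENP-A replicates 1 and 3, 5.93% in siNeg IgG and 19.6% in siDNAJC9 IgG. Set against 7.0% of the sequence, the distal regions were under-represented in 5 lists and over-represented in the siDNAJC9 IgG list.

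**Figure D1:**
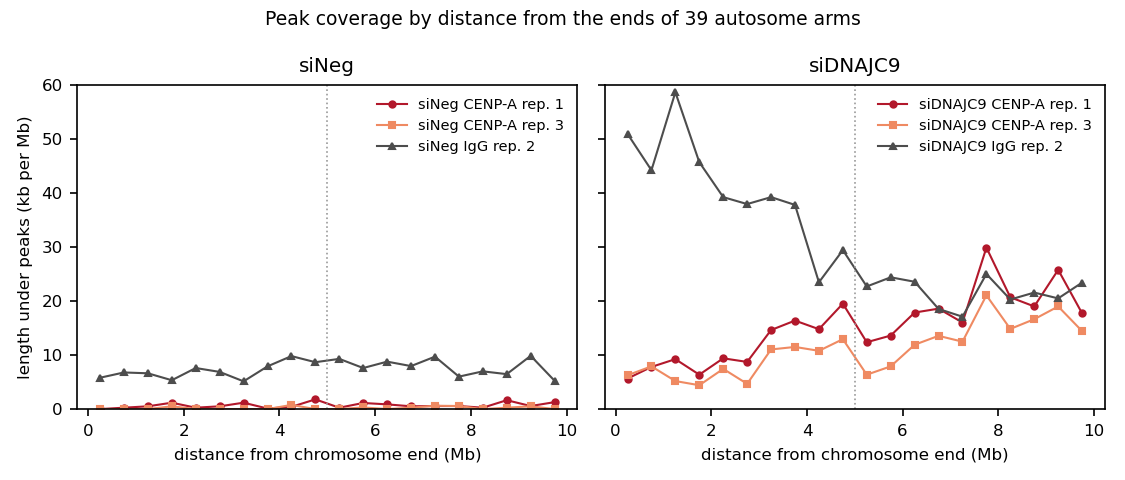
Length under peaks in kb per Mb (vertical axis) in 0.5-Mb steps of distance from the chromosome end (horizontal axis, Mb), summed over 39 arms, for the 3 siNeg libraries on the left and the 3 siDNAJC9 libraries on the right, with a dotted line at 5 Mb. The siDNAJC9 IgG line falls inward from the end while both siDNAJC9 CENP-A lines rise, all of them unevenly. The siNeg CENP-A lines lie near 0.

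In 1-Mb steps, siDNAJC9 CENP-A replicate 1 covered 6.72 kb per Mb in the outermost Mb, 17.1 kb per Mb at 4–5 Mb and 21.7 kb per Mb at 9–10 Mb. Replicate 3 covered 7.08, 11.8 and 16.7 kb per Mb at the same places. In siDNAJC9 IgG the length ran from 47.5 kb per Mb in the outermost Mb through its highest step, 52.1 kb per Mb at 1–2 Mb, to 26.4 kb per Mb at 4–5 Mb. It was then level between 20.9 and 23.5 kb per Mb out to 10 Mb. Further in, at 25–30 Mb (35 arms), the CENP-A lists stood at 33.0 and 23.7 kb per Mb and the IgG list at 12.5 kb per Mb. The steps are regions of the same libraries and are not replicates, so no test was made on the profile.

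Within each library, the ratio of distal length to 5–10 Mb length is free of the number of peaks in that library. On the log2 scale it was −0.30 in replicate 1 and −0.97 in replicate 3 of siNeg CENP-A, and −0.77 and −0.75 in those of siDNAJC9 CENP-A. The siDNAJC9 pair lay between the siNeg replicates. The difference between siDNAJC9 and siNeg was −0.12 (exact two-sided permutation test, p = 1), less than the spread of the siNeg replicates (SD 0.47, n = 2). Its sign rested on 1 library: without siNeg CENP-A replicate 1 the difference was 0.21.

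In the IgG lists the log2 ratio was −0.14 for siNeg and 0.91 for siDNAJC9. All 4 CENP-A libraries lay below both IgG libraries, with a mean of −0.70 ± 0.28 (SD, n = 4) against 0.38 ± 0.74 (SD, n = 2). The difference was −1.08, and the exact two-sided permutation test gave p = 0.133, the smallest that 4 against 2 allow. The siDNAJC9 IgG library carried much of it: without that library the difference was −0.55, and without the siNeg IgG library it was −1.60. Within siNeg the CENP-A mean lay 0.49 below IgG on the log2 scale (a difference of −0.49). That is about the spread of the siNeg CENP-A replicates (SD 0.47, n = 2), which had 23 and 5 distal peaks. Within siDNAJC9 the difference was −1.66.

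**Figure D2:**
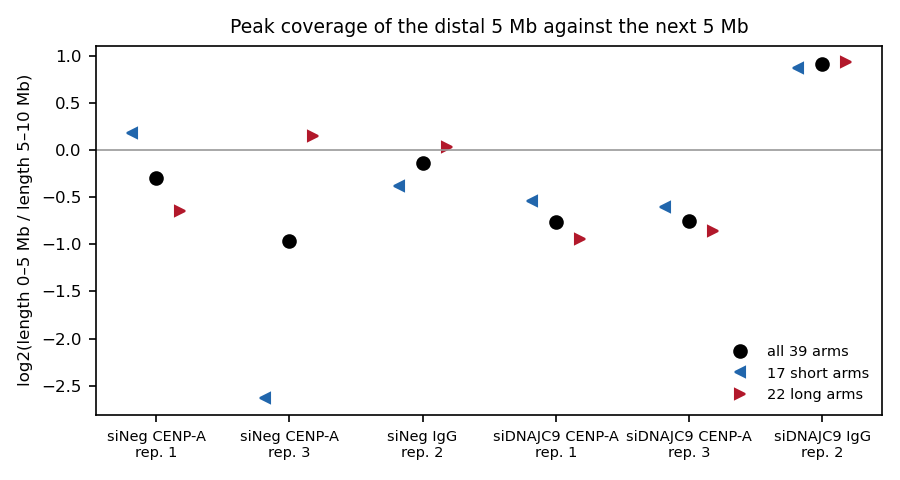
Log2 of the length under peaks at 0–5 Mb over that at 5–10 Mb (vertical axis) for each of the 6 libraries, with black points for all 39 arms and triangles for the 17 short and 22 long arms. The siDNAJC9 IgG library is the only 1 with all 3 points above 0 (0.91 over all arms), and siNeg CENP-A replicate 3, with 5 distal peaks, has the widest split between arm types.

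The same direction held inside the distal 5 Mb. The outer 2.5 Mb held 749 kb and the inner 2.5 Mb 1442 kb under siDNAJC9 CENP-A peaks of replicate 1, and replicate 3 had 608 and 992 kb. For siNeg CENP-A the lengths were 43 and 78 kb in replicate 1 and 10 and 15 kb in replicate 3. The IgG lists had 626 and 748 kb in siNeg and 4649 and 3269 kb in siDNAJC9. Every list but siDNAJC9 IgG thus had more length in the inner part.

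The log2 ratio of outer to inner length averaged −0.77 ± 0.16 (SD, n = 4) over CENP-A libraries and 0.13 ± 0.54 (SD, n = 2) over IgG libraries. CENP-A lay below IgG by a difference of −0.90 (exact two-sided permutation test, p = 0.133), and by −0.52 without the siDNAJC9 IgG library. The difference was −0.47 within siNeg and −1.33 within siDNAJC9.

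Short and long arms were compared on the 17 chromosomes with both ends in the rule. Under siDNAJC9 CENP-A peaks the short-arm ends held 12.0 and 8.64 kb per Mb in replicates 1 and 3, and the long-arm ends 9.40 and 7.40 kb per Mb. The siDNAJC9 IgG list went the other way, with 34.1 kb per Mb on short arms and 45.9 kb per Mb on long arms. Over all 6 libraries the log2 ratio of short to long arms did not separate CENP-A from IgG (difference 0.15, exact two-sided permutation test, p = 0.8), since siNeg CENP-A replicate 3, with 5 distal peaks, lay at −1.58. Without siDNAJC9 CENP-A replicate 1 the difference was −0.048, and without replicate 3 it was −0.0032. By chromosome the short-arm end exceeded the long-arm end on 8 of 17 in each siDNAJC9 CENP-A list and on 7 of 17 in siDNAJC9 IgG.

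Distal CENP-A peaks were short, as were those at 5–10 Mb. Counting each peak that reached the distal regions, siDNAJC9 CENP-A replicates 1 and 3 had 308 and 239, siNeg CENP-A replicates 1 and 3 had 23 and 5, and the IgG lists had 238 in siNeg and 1234 in siDNAJC9. The median width was 6 kb in the 3 siDNAJC9 lists and 5 kb in the 3 siNeg lists. At 5–10 Mb it was 7 and 6 kb in siDNAJC9 CENP-A replicates 1 and 3, and 5 kb in siDNAJC9 IgG and every siNeg list. Peaks of 10 kb or more numbered 32 and 17 in siDNAJC9 CENP-A and 64 in siDNAJC9 IgG, against 52, 32 and 25 at 5–10 Mb. The latter came from 518, 391 and 702 peaks, more than the distal count for CENP-A and fewer for IgG. Both siNeg CENP-A lists had none of that width in either zone. The widest distal CENP-A peak was 29 kb and the widest distal IgG peak 32 kb.

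The outermost 500 kb held few CENP-A peaks. A peak began within 500 kb of the end on 13 and 14 of 39 arms in siDNAJC9 CENP-A replicates 1 and 3, on 0 arms in either siNeg CENP-A list, on 14 arms in siNeg IgG and on 36 arms in siDNAJC9 IgG. The median distance from the end to the first peak was 904 and 727 kb in the siDNAJC9 CENP-A lists, 5935 and 16798 kb in the siNeg CENP-A lists, 776 kb in siNeg IgG and 66 kb in siDNAJC9 IgG. On long arms these counts and distances depend on how the ends were set, mostly by a siDNAJC9 IgG peak. For the 17 short arms alone the medians were 719 and 854 kb in siDNAJC9 CENP-A and 4764 and 14223 kb in siNeg CENP-A. They were 914 kb in siNeg IgG and 186 kb in siDNAJC9 IgG there. Of the outermost 100-kb tiles, siDNAJC9 CENP-A replicate 1 had a peak on 0 of 17 short arms and 2 of 22 long arms. Replicate 3 had a peak on 1 and 2 of them. The siDNAJC9 IgG list had 4 and 18, the long-arm count being raised by the way the ends were set.

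Arm ends were tested one by one in a fit over the whole autosomes. The 39 distal bins of 5 Mb, the 39 bins at 5–10 Mb and 478 bins of the remaining sequence were fitted together with limma on log2(kb per 5 Mb + 1), with Benjamini-Hochberg adjustment over all 556 bins. CENP-A coverage rose with siDNAJC9 at 24 of 39 distal bins (adjusted p under 0.05), against 80.9% of all bins, 32 of 39 at 5–10 Mb and 394 of 478 elsewhere. It fell at 0 distal bins (0% of all bins, and 0 distal bins at an unadjusted p under 0.05). By count, 8 of 17 short-arm and 16 of 22 long-arm ends rose. The distal share called was below that of all bins.

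At 35 of 39 arm ends the siDNAJC9 pair was above the siNeg pair without overlap, against 95.3% of all bins, and at 0 it was below (0% of all bins). The median log2 difference was 3.96 over distal bins, 5.13 at 5–10 Mb and 5.64 over all bins. Both siNeg lists were at 0 on 19 distal arms, 18 of which were among the 24 called, and there the difference depends on the 1 kb added before the log. With each siNeg list at 0 set to the narrowest callable peak, 5 kb, the medians were 2.37, 3.39 and 4.06. After scaling all lists to the same total the distal median was 2.54 and that of all bins 3.08, a shift of the whole scale, and 15 distal bins rose. Over all bins that scaling gave 227 higher and 16 lower calls, against 450 and 0 without it.

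Against IgG the arm ends were the reverse of the chromosome interior. In siDNAJC9 cells, CENP-A coverage was higher than IgG at 0 distal bins, against 1 of 39 at 5–10 Mb and 12.6% of all bins. At an unadjusted p it was higher at 0 distal bins, against 3 at 5–10 Mb and 24.1% of all bins. Without siDNAJC9 CENP-A replicate 1 or 3, 2 and 3 distal bins were higher. CENP-A coverage was lower at 3 distal bins, 5q, 7p and 18q, against 4 of 39 at 5–10 Mb and 3.06% of all bins. At an unadjusted p, 16 distal bins were lower, against 8 of 39 at 5–10 Mb and 8.09% of all bins. This contrast has 1 IgG library, which is assumed to vary like the CENP-A groups, and the count of 3 varied from 0 to 18 with the settings. Leaving out siDNAJC9 CENP-A replicate 1 or 3 gave 18 and 16, leaving out siNeg CENP-A replicate 1 or 3 gave 0 each, and so did the replicate number as a block. The SE and p of this contrast hold no spread between IgG libraries.

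On 5q, CENP-A peaks covered 32 and 28 kb in siDNAJC9 replicates 1 and 3, beside 179 kb in siDNAJC9 IgG (log2 difference −2.54, SE 0.21, limma adjusted p = 0.0345). On 7p the lengths were 16 and 11 kb beside 283 kb (−4.31, SE 0.32, adjusted p = 0.0345). On 18q they were 37 and 30 kb beside 145 kb (−2.09, SE 0.24, adjusted p = 0.0394). On each of these 3 arms both CENP-A lists lay below IgG and both siNeg CENP-A lists were at 0. The spread in this fit comes from both CENP-A groups, so siNeg lists that are both at 0 add none to the SE. The calls on these arms were lost without siNeg CENP-A replicate 1 or 3, and with the replicate number as a block. The gap to IgG was larger on 12q and 1p (log2 difference −7.75 and −7.02, SE 1.35 each), where it did not pass.

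Counted without a test, both siDNAJC9 CENP-A lists lay below IgG at 32 of 39 arm ends (25.4% of all bins) and above it at 4, namely 3q, 9p, 10p and 18p (63.8% of all bins). The counts at 5–10 Mb were 23 below and 15 above. The median log2 difference from IgG was −2.54 over distal bins, −0.50 at 5–10 Mb and 1.06 over all bins. After scaling to the same total the distal median was −3.27 and that of all bins 0.30.

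In siNeg cells, again against 1 IgG library, CENP-A coverage was lower than IgG at 19 of 39 distal bins (47.7% of all bins) and higher at 0 (0% of all bins; by unadjusted p, 20 lower and 0 higher, against 53.8% and 0.18% of all bins). Without siNeg CENP-A replicate 1, 34 distal bins were lower. Both siNeg CENP-A lists lay below IgG at all 39 arm ends (95.7% of all bins) and above it at 0 (0.36% of all bins). The distal regions did not stand apart here: the median log2 difference was −4.23, and over all bins it was −4.17.

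Between the IgG libraries, 32 of 39 distal bins were at least 2-fold higher in siDNAJC9 on log2(kb + 1), against 32.4% of all bins and 20 of 39 at 5–10 Mb. None was 2-fold lower (12.8% of all bins). The median log2 difference was 2.61 over distal bins and 0.41 over all bins. The siDNAJC9 IgG list exceeded the siNeg IgG list on 38 arms, and on 9p both had 49 kb.

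The arms differed widely from each other. Distal CENP-A length in siDNAJC9 cells ran from 0 to 174 kb per arm in replicate 1 (median 40 kb) and from 0 to 143 kb in replicate 3 (median 28 kb). The 5 arms with the most were 9p, 10p, 6p, 11q and 18p. The 5 richest arms of each list held 33.5% and 35.6% of its distal length.

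On 9p, siDNAJC9 CENP-A peaks covered 174 kb in replicate 1 and 143 kb in replicate 3. The siNeg CENP-A lists had 5 and 0 kb there, and both IgG lists 49 kb. This arm end rose with siDNAJC9 (log2 difference 6.02, SE 1.11, limma adjusted p = 0.0256). That call was lost without siDNAJC9 CENP-A replicate 1 or 3 (adjusted p = 0.274 and 0.251) and after scaling to the same total (log2 difference 3.24, adjusted p = 0.577). Against IgG it lay 1.67 higher on the log2 scale, which did not pass (adjusted p = 0.497).

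The 10p end had 146 and 117 kb under siDNAJC9 CENP-A peaks, 13 and 0 kb in siNeg and 86 kb in siDNAJC9 IgG. Its difference from siNeg was 5.14 (SE 1.62, limma adjusted p = 0.0635), which did not pass. Without siNeg CENP-A replicate 1 or 3 it was 7.04 and 3.23. Leaving out either one takes the spread between the siNeg values of 13 and 0 kb out of the SE. The 6p end had 150 and 96 kb beside 109 kb in siDNAJC9 IgG, so that the replicates stood on either side of the IgG length. On 11q the CENP-A lists had 122 and 109 kb, both below the 126 kb of IgG, and no siNeg CENP-A peak (log2 difference from siNeg 6.86, SE 0.17, adjusted p = 0.000727). On 18p they had 141 and 81 kb, above the 60 kb of IgG, and again no siNeg peak (6.75, SE 0.37, adjusted p = 0.00158). On 11q and 18p the siNeg CENP-A lists, both at 0, added no spread to the SE. Except on 9p and 18p, which kept their side in every setting tried, the order of CENP-A and IgG on these arms was not stable: on 10p and 6p it turned under scaling to the same total (−0.16 and −0.62), and on 11q it turned with peaks of at least 7 kb (0.64).

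The arm ends with the least CENP-A length were 12q, 1p, 8p, 19p and 5p. On 12q both siDNAJC9 CENP-A lists had 0 kb, and siNeg CENP-A replicate 3 had 5 kb. Its IgG lists held 10 kb in siNeg and 214 kb in siDNAJC9. On 1p the siDNAJC9 CENP-A lists had 5 and 0 kb, beside 317 kb in IgG. These 2 arm ends had at most 5 kb under the peaks of any CENP-A list, and siDNAJC9 IgG length above the median arm (199 kb).

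The 8p end had 7 and 13 kb under siDNAJC9 CENP-A peaks and 96 kb under IgG. The 19p end had 17 and 5 kb beside 425 kb. The 5p end had 17 and 6 kb beside 199 kb, and rose against siNeg (log2 difference 3.49, SE 0.59, limma adjusted p = 0.0224). That call was lost without the outermost 500 kb (1.80, adjusted p = 0.340) and with peaks of at least 7 kb (1.5, adjusted p = 0.359). On 8p and 19p the differences from siNeg, 2.00 and 2.08, did not pass and turned to −0.66 and −0.57 after scaling. Without siNeg CENP-A replicate 1 the differences were 3.40 and 3.38. That list held the only siNeg CENP-A peak on each arm, 6 kb on 8p and 5 kb on 19p. On 8p the 7-kb width cut dropped this 6-kb peak too, and the difference was 3.08 (limma adjusted p = 0.000638). Each of these values compares siDNAJC9 with a siNeg level put at 0 by the setting, without spread, and so does not test a rise.

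The siDNAJC9 IgG length was greatest on 10q (715 kb), 19p (425 kb), 17q (413 kb), 16p (342 kb) and 8q (340 kb). The 10q end also had the most siNeg IgG length (149 kb) and the most siNeg CENP-A length in replicate 1 (31 kb, with 0 kb in replicate 3). Its siDNAJC9 CENP-A lists had 19 and 46 kb, so that the groups overlapped, and the log2 difference of 2.44 did not pass (SE 2.18, limma adjusted p = 0.357) and became −0.062 without siNeg CENP-A replicate 3. On 17q the CENP-A lists had 42 and 12 kb, on 16p 11 and 25 kb, and on 8q 49 and 19 kb. Every 1 of these 5 arm ends held at least 5 times more IgG than CENP-A length in both siDNAJC9 lists. They were picked for IgG length, which favors a wide gap, and both CENP-A lists lay below IgG at 32 of all 39 arm ends.

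**Figure D3:**
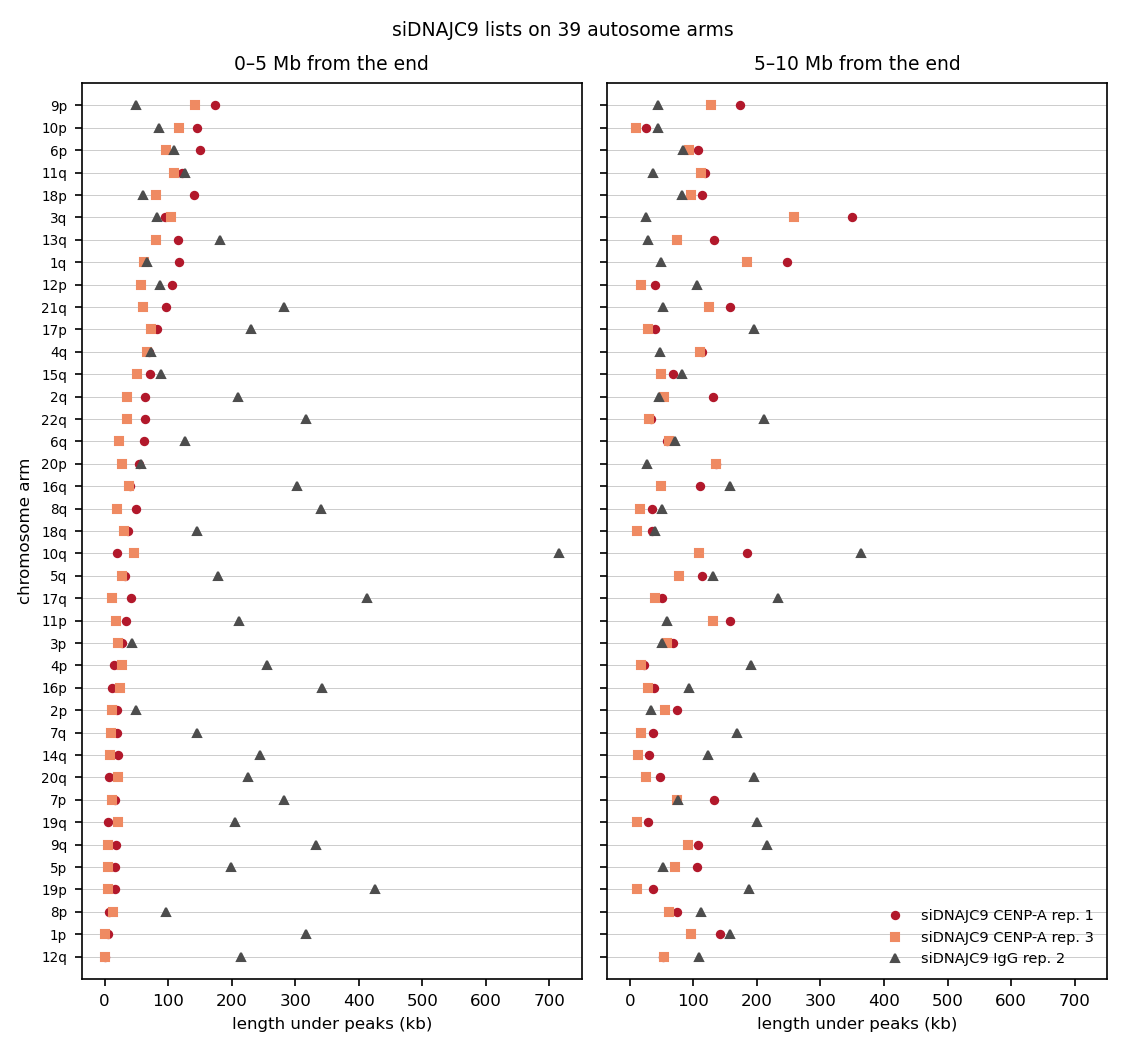
Length under peaks in kb (horizontal axis) on each of 39 arms (vertical axis, ordered by mean distal siDNAJC9 CENP-A length) in the distal 5 Mb on the left and at 5–10 Mb on the right, for the siDNAJC9 CENP-A replicates and the siDNAJC9 IgG library. On the left the IgG triangles reach 715 kb and lie right of both CENP-A points on 32 arms; on the right they do so on 23.

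Over the 39 arm ends the siDNAJC9 CENP-A replicates ranked the arms in a similar order, and the siNeg CENP-A replicates did not. Spearman's rho of distal length was 0.84 between siDNAJC9 CENP-A replicates 1 and 3, and −0.48 and −0.45 between these replicates and siDNAJC9 IgG. The IgG lists of the 2 siRNAs had a rho of −0.14 with each other, and the siNeg CENP-A replicates one of −0.18. These values are descriptions over 39 arms, with no test; the 3 libraries of an siRNA share the IgG library they were called against, and arms share their base composition and mappability in all lists. Over the 5–10 Mb regions rho was 0.93 between the siDNAJC9 CENP-A replicates and −0.38 and −0.37 with IgG.

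Compared arm by arm with the next 5 Mb, both siDNAJC9 CENP-A lists had less distal length on 24 of 39 arms. On 21 of these 24 arms the siDNAJC9 IgG list had more distal length than at 5–10 Mb. Both CENP-A lists had more distal length on 8 arms (6p, 8q, 10p, 12p, 15q, 17p, 18q and 22q). By the same comparison siDNAJC9 IgG had more distal length on 34 arms and less on 5 (3p, 7q, 8p, 12p and 18p). The 12p end was the only 1 in both of these last lists, with 106 and 57 kb of CENP-A and 88 kb of IgG in the distal 5 Mb beside 40 and 17 kb and 105 kb at 5–10 Mb.

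Down to the scale of tiles, 250 and 209 of the 1950 distal tiles had a siDNAJC9 CENP-A peak in replicates 1 and 3 (12.8% and 10.7%). The siNeg CENP-A lists had 26 and 5 such tiles (1.33% and 0.256%), and the IgG lists 225 in siNeg (11.5%) and 874 in siDNAJC9 (44.8%). At 5–10 Mb the siDNAJC9 CENP-A lists had 396 and 321 tiles (20.3% and 16.5%) and the siDNAJC9 IgG list 574 (29.4%). No peak of any list touched 773 of the distal tiles.

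The siDNAJC9 CENP-A replicates shared 126 distal tiles, 50.4% of those of replicate 1 and 60.3% of those of replicate 3. At 5–10 Mb they shared 214, or 54.0% and 66.7%. By single peaks with at least 1 bp in common the distal shares were 34.7% and 45.6%. Of the 126 shared tiles, 47 also had a siDNAJC9 IgG peak and 79 did not. The siDNAJC9 IgG list touched 40.0% and 40.7% of the distal tiles of CENP-A replicates 1 and 3, beside 44.8% of all distal tiles. Peaks that overlapped an IgG peak by at least 1 bp were 9.74% and 8.79% of the distal CENP-A peaks. The share that random placement would give was not computed, so these values do not show that CENP-A and IgG peaks lie apart. Of the distal IgG tiles, 736 of 874 (84.2%) had a peak in neither siDNAJC9 CENP-A list, close to the 82.9% of all distal tiles that had none. The siNeg IgG list shared 104 of its 225 distal tiles with siDNAJC9 IgG (46.2%), close to the 44.8% of all distal tiles. These were 11.9% of the siDNAJC9 IgG tiles, and the siNeg IgG list touched 11.5% of all distal tiles.

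The 5 distal tiles with the most mean siDNAJC9 CENP-A length, with both replicates above 0, were a pair of neighbors on 10p and single tiles on 22q, 21q and 9p. The tile chr10:4700001-4800000 had 42 and 29 kb under CENP-A peaks in replicates 1 and 3 and none in any other list. Its neighbor chr10:4600001-4700000 had 34 and 15 kb, including a 29-kb peak of replicate 1 at chr10:4663001-4692000. A siNeg CENP-A replicate 1 peak of 5 kb at chr10:4673001-4678000 lay inside that interval, and the siDNAJC9 IgG list had 5 kb in the tile.

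The tile chr22:46136001-46236000 had 29 and 24 kb, mainly in peaks at chr22:46162001-46178000 in replicate 1 and chr22:46161001-46179000 in replicate 3. The tile chr21:41908001-42008000 had 28 and 22 kb in 3 peaks of each replicate. Neither had a peak in the other 4 lists. On 9p, the tile chr9:600001-700000 had 25 and 22 kb and lay nearest to a chromosome end of the 5, with 5 kb under siDNAJC9 IgG peaks. In each of these 5 tiles at least 1 peak of replicate 1 overlapped a peak of replicate 3. The choice of tiles with much length and both replicates above 0 favors such overlap. Over all distal peaks the overlapping shares were 34.7% in replicate 1 and 45.6% in replicate 3.

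The 5 tiles with the most siDNAJC9 IgG length were 3 on 10q and 1 each on 2q and 16p. The IgG list covered 52 kb of chr10:134174001-134274000, where CENP-A replicates 1 and 3 had 0 and 11 kb. It covered 39 kb of chr2:241172001-241272000 (CENP-A 6 and 0 kb) and 36 kb of chr16:1000001-1100000 (CENP-A 0 and 0 kb). The other two 10q tiles were chr10:133974001-134074000, with 35 kb of IgG and no CENP-A peak, and chr10:132074001-132174000, with 32 kb of IgG, 6 and 0 kb of CENP-A and 5 kb of siNeg IgG. None of these 5 tiles had a CENP-A peak in both siDNAJC9 replicates, which 6.46% of all distal tiles had. So few tiles cannot be told apart from that share.

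**Figure D4:**
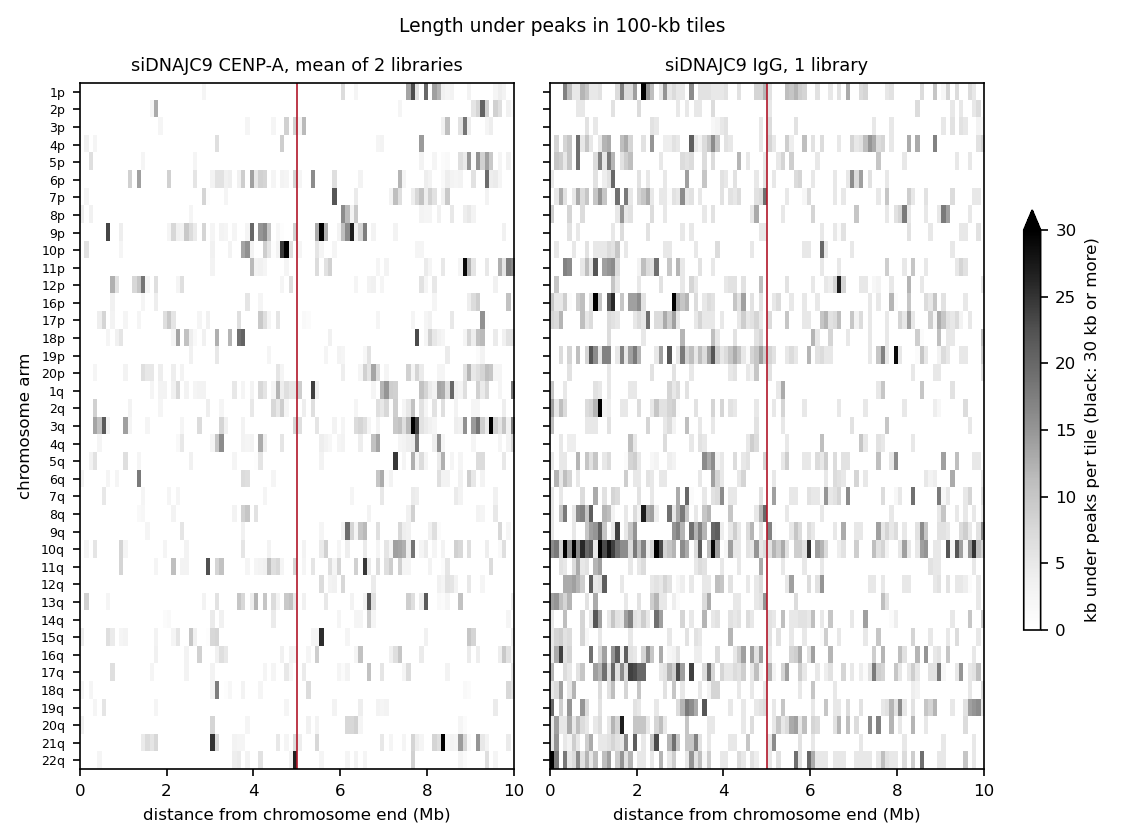
Length under peaks in each 100-kb tile (gray scale, 0 to 30 kb, black for 30 kb or more) on 39 arms (vertical axis, short arms first) by distance from the chromosome end in Mb (horizontal axis), for the mean of the 2 siDNAJC9 CENP-A libraries on the left and the 1 siDNAJC9 IgG library on the right, with a line at 5 Mb. CENP-A tiles are scattered and sparse next to the end, while IgG tiles crowd toward it, most on 10q.

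In control cells, the distal CENP-A peaks were few and scattered. The 26 tiles of siNeg replicate 1 and the 5 of replicate 3 had none in common. The 5 tiles of replicate 3 lay on 1q, 3p, 4q, 12q and 15q, with 5 kb each, and 4q was the only arm end with a peak in both siNeg CENP-A lists. The 10q end held 7 of the 26 tiles of replicate 1. Of the 31 distal tiles with a siNeg CENP-A peak, 4 (12.9%) had a peak in either siDNAJC9 CENP-A list, beside 17.1% of all distal tiles. At 5–10 Mb the count was 18 of 35 (51.4%), beside 25.8% of all tiles there. These counts rest on few peaks, most of them from siNeg replicate 1.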

How the data were processed

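Per the labels, CENP-A and IgG CUT&RUN libraries were made from siNeg and siDNAJC9 cells. The authors' methods give trimming with Cutadapt, alignment with bowtie2 to T2T-CHM13v2.0, removal of duplicates with Picard and broad peak calling with GoPeaks per library, after spike-in normalization, through CARLISLE. In the submitters' processing notes stand bcl2fastq, Bowtie and T2T-CHM13. The deposited lists hold peak coordinates only, without scores or read counts, so depth, intervals and a stricter caller threshold could not be had. Control library, spike-in factor and threshold all bear on which regions are listed.

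Peaks were laid on 1-kb steps, and length was summed per 100-kb tile, arm and library. Groups came from the sample labels. Libraries were compared by exact two-sided permutation tests. The 556 bins of about 5 Mb (limma 3.58.1, R 4.3.3) left out the 5-Mb window of each chromosome with most siNeg CENP-A replicate 1 coverage and bins with under 2.5 Mb left, and used log2(kb per 5 Mb + 1) in a fit of 4 groups. The fit was tested on data simulated from siDNAJC9 CENP-A levels in every list, so the low siNeg levels were not represented. Bins are not independent. The paper calls the CUT&RUN repeats biological, and the labels do not say whether they were separate cultures; p-values measure the spread between these libraries. Arms named with values were the 5 with most and the 5 with least mean siDNAJC9 CENP-A length, the 5 with most siDNAJC9 IgG length, and 10q; tiles were the 5 with most of each and any with peaks in both siNeg CENP-A lists, of which there were 0. Other arms, such as 5q, 7p, 18q and 3q, were named after their values were seen. Members and lists were chosen with earlier results of these data known. No genome or gene table of this build was used, so no genes or sequences are given. Alternatives varied the outermost part, peak width, joining, arms, replicates, block, pseudocount, scaling, low bins, zone width and overlap rule. The remaining steps ran in Python 3.11.15 with pandas 2.3.3 and numpy 2.4.6, and figures were drawn with matplotlib 3.10.9.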

Additional observations from a re-analysis of the deposited data

Results flagged for a closer look

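In siDNAJC9 cells, both CENP-A libraries had less length under peaks in the distal 5 Mb than at 5–10 Mb, and the IgG library had more, so that the antibodies moved in opposite directions. The CENP-A mean of the log2 ratio minus that of IgG was −1.66 over all 39 arms, −1.44 over the 17 short arms and −1.83 over the 22 long arms. The difference was not tested within siDNAJC9, because there was 1 IgG library. On the long arms the outermost tile was set by a peak, mostly of IgG; the short arms, whose ends start at base 1, showed the same direction. In siNeg the IgG log2 ratio was −0.14, so the opposite direction rested on 1 library, and its cause was not tested.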

How the results depend on the processing

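The ratio results had no value with peaks of at least 7 kb, and short against long arms none with a distal part of 3 Mb, because a siNeg list was at 0. With siDNAJC9 against siNeg, the distal to 5–10 Mb difference of −0.12 became 0.10 with a distal part of 3 Mb, and −0.46 to 0.21 leaving out 1 library each. The CENP-A against IgG difference between short and long arms was −0.048 to 0.60 leaving out 1 CENP-A library each. Scaled to the same total, 15 distal bins rose instead of 24. Distal bins with siDNAJC9 CENP-A below IgG numbered 3, and 14 with peaks of at least 7 kb, 15 with a 5-kb pseudocount, 12 after scaling, 0 without bins of a mean under 5 kb and 0 to 18 leaving out 1 library. Those above IgG numbered 0, and 4 with peaks of at least 7 kb and 0 to 3 leaving out 1 library. In siNeg, bins below IgG numbered 19, and 20 to 34 leaving out 1 library, the highest without siNeg CENP-A replicate 1. 

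With the replicate number as a block, the log2 length ratio was 5.09 (exact test of 2 pairs, p = 0.5), the distal to 5–10 Mb difference −0.12 (p = 1), 29 distal bins rose and 0 lay below IgG. Replicates of the same number did not deviate together (r of replicate 1 minus replicate 3 between siRNAs 0.05 over 556 bins, −0.15 over 39 distal bins), so the number was not taken as a pairing.

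Tiles shared by the siDNAJC9 CENP-A replicates fell from 50.4% of replicate 1 to 40.0% with at least 10 kb under peaks, 43.8% with 50-kb tiles and 34.7% by single peaks, and from 60.3% to 45.6% of replicate 3 by single peaks. At 5–10 Mb the shares of replicate 1 were 40.0%, 48.7% and 40.0%, and those of replicate 3 60%, 60.9% and 52.4%. Against siNeg, 10q turned to −0.062 without siNeg CENP-A replicate 3 (range −0.062 to 4.94 leaving out 1 library) and −0.39 scaled, 19p to −0.57 scaled, and 8p to −0.11 without the outermost 500 kb and −0.66 scaled. Against IgG, 10p turned to −0.16 and 6p to −0.62 scaled, 6p to −0.18 without siDNAJC9 CENP-A replicate 1 (range −0.18 to 0.46), and 11q to 0.0040 without the outermost 500 kb and 0.64 with peaks of at least 7 kb. In the limma fits, the library left alone in a group was assumed to vary like the other groups. Causes were not tested. The length ratio and the CENP-A against IgG differences in the distal to 5–10 Mb and outer to inner ratios kept their direction in every setting that gave a value, also without the outermost 100 or 500 kb and, chosen after seeing the data, without either IgG library. The lists hold no signal or depth, so weak peaks cannot be separated from absent ones.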

Other observations

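Of all 1950 tiles at 5–10 Mb, 1 had a peak in all 4 CENP-A lists, and 0 of the 1950 distal tiles did. The shortest distance from a chromosome end to a siNeg CENP-A peak was 860 kb in replicate 1 and 1729 kb in replicate 3.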
